A study of Mus musculus with 12 samples.

Results

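The comparison of embryonic day 8.5 (E8.5) with embryonic day 8 (E8) covers the hours in which the mouse heart tube forms. Total RNA was sequenced from the dissected cardiogenic region, the part of the embryo that gives rise to the heart, and 6 of the 12 libraries of the series belong to these stages: 3 libraries at E8.5 and 3 at E8, taken by the stage in their labels. The other 6 libraries, 3 each at E9.5 and E14, entered only the filter, the scaling and the estimate of the spread. The labels name no strain, genotype, allele or treatment, and they do not say how many embryos were pooled or whether the libraries of a stage came from separate litters, so the p-values below measure the spread between these libraries, which may be technical. Each library held 101202593 to 111404849 counts at E8.5 and 101231014 to 122785175 at E8, and 28846 of the 48709 gene intervals in the table had enough counts to be tested. Levels are CPM, counts relative to the library's total, scaled by trimmed means of M values (TMM), and changes are log2 fold changes of E8.5 over E8, with their standard errors after ±.

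During these hours the paired cardiac precursors of the crescent meet at the midline and form a linear tube, with an inner endocardium, an outer layer of myocardium and hyaluronan-rich cardiac jelly between them. The tube lengthens as cells of the second heart field, marked by the LIM homeobox factor Isl1, enter at its poles. The foregut endoderm lies directly beneath, the visceral endoderm and the yolk sac with its first red cells lie close by, and a dissection of the region can hold cells of each. Cardiac genes were well represented in all 6 libraries. Nkx2-5, the homeobox factor of cardiac progenitors, had 104, 72.7 and 79.3 CPM in E8.5 replicates 1, 2 and 3 and 91.7, 104 and 104 CPM in the E8 replicates, and did not pass the test (adjusted p = 0.248 with all libraries and 0.276 without E8.5 replicate 3).

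E8.5 replicate 3 stood apart from the other E8.5 libraries. Markers of visceral endoderm, the extra-embryonic epithelium that takes up and secretes nutrients and apolipoproteins, summed to 332, 239 and 2284 CPM in E8.5 replicates 1, 2 and 3, against 169, 163 and 162 CPM in the E8 replicates, and none of the 21 markers was at 0 in any of the 6 libraries. The excess was in replicate 3, while replicates 1 and 2 were also above all E8 libraries. Cubn, the endocytic receptor cubilin, had 46.2, 16.9 and 469.5 CPM at E8.5 and 5.39, 4.58 and 5.17 CPM at E8. Over 15701 genes, the standard deviation of the log2 difference between libraries was 0.348 to 0.365 between E8.5 replicate 3 and the E8 libraries, against 0.457 and 0.485 between it and E8.5 replicates 1 and 2. Replicates 1 and 2 differed from each other by 0.289, and the E8 libraries by 0.136 to 0.209. By this measure replicate 3 lay nearer to E8 than to its own stage. Among the 10 coding genes furthest above the mean of replicates 1 and 2 in it were Apoc2, Apoa1, Afp, Apob, Folr1, Ttr, Apom, Cubn and Tdh, and the 10 furthest below were Erv3, Prl8a2, A2m, Htra1, Adamts5, Lipg, Hbb-bs, Hbb-bt, Esr1 and Slc4a1. In bulk RNA, more cells of a type and more RNA per cell cannot be told apart. Results are therefore given with all libraries and without E8.5 replicate 3; the part of visceral endoderm RNA in any other difference was not tested.

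**Figure D1:**
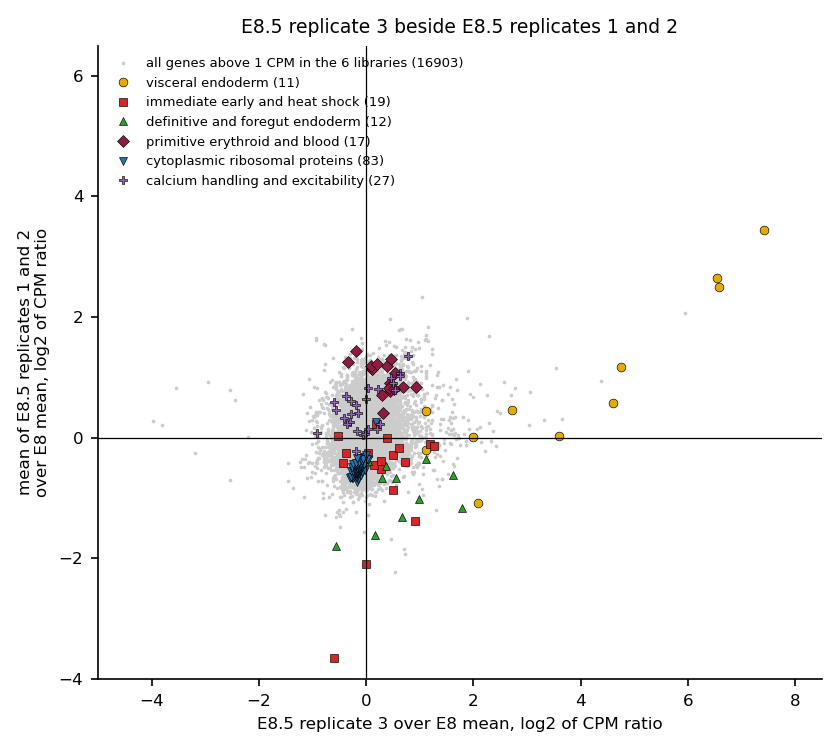
Each point is a gene above 1 CPM in all 6 libraries (16903 genes): the horizontal axis gives E8.5 replicate 3 over the E8 mean and the vertical axis the mean of E8.5 replicates 1 and 2 over the E8 mean, both as log2 of a CPM ratio. Visceral endoderm markers reach the far right, while most immediate early genes and the foregut genes lie below 0 on the vertical axis and many of them lie right of 0 on the horizontal axis.

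With all libraries 257 genes (0.891% of those tested) were higher and 84 (0.291%) lower at E8.5 at an adjusted p under 0.05 (edgeR's quasi-likelihood test, Benjamini-Hochberg adjustment over all genes, as for every adjusted p below). Without E8.5 replicate 3 the counts were 4245 (14.7%) and 4652 (16.1%), and these held all 257 and all 84. The median change over all genes was 0.02 with all libraries and -0.02 without replicate 3. Most calls were small: 945 of the 4245 rises and 198 of the 4652 falls reached 1 on the log2 scale. E8.5 replicate 3 lay on the same side of the E8 mean for 66.0% of the rises and 69.1% of the falls called without it. The counts with all libraries depended on single libraries, falling to 0 and 0 without E8 replicate 3 (5331 genes at an unadjusted p under 0.05), to 9 and 2 without E8 replicate 2, and to 4 to 10 and 5 to 11 without E9.5 replicate 2 or any one E14 library. They were 32 and 11 without E8 replicate 1, 46 and 14 without E9.5 replicate 3 and 68 and 14 without E8.5 replicate 2. With 0 calls left without E8 replicate 3, all 21 named genes whose all-library call was followed through these fits necessarily lost it there (adjusted p = 0.135 to 0.212). Without E8.5 replicate 3, leaving out one more E8 or E8.5 library gave 2158 to 4060 higher and 2388 to 4896 lower, the lowest counts being those without E8.5 replicate 2, where the remaining E8.5 library is taken to vary like the other stages. The split also moved with the scaling: 47.7% of the calls without replicate 3 were rises, against 58.0% with upper-quartile factors and 60.3% with library sizes alone. With all libraries 75.4% of the calls were rises, against 55.4% with library sizes alone.

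The change followed the length of the gene on the chromosome, its span. Among 17384 protein-coding genes, those called higher without E8.5 replicate 3 had a median span of 90.5 kb and those called lower 11.9 kb, against 23.3 kb for all tested. In classes of rising span the median change was -0.25 under 2 kb, -0.25 at 2 to 10 kb, -0.13 at 10 to 30 kb, 0.10 at 30 to 100 kb, 0.40 at 100 to 300 kb and 0.65 at 300 kb and over. The share called higher was 2.95% in the shortest class and 64.6% in the longest, and the share called lower 24.5% and 3.45%. The trend was present in each E8.5 library: over all genes of 300 kb and more the median against the E8 mean was 0.42, 0.75 and 0.23 in E8.5 replicates 1, 2 and 3, against 0.27, -0.16 and -0.11 in the E8 replicates, each set against the other E8 libraries. E8 replicate 1 thus had a trend of the same sign; its value has another denominator than those of the E8.5 libraries and cannot be ranked with them. Genes that overlap no other interval gave 0.65 in the longest class and -0.32 in the shortest.

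A second fit removed the smooth trend of each library against span ("span-adjusted" below). It called 114 genes (0.395%) higher and 61 (0.211%) lower with all libraries, and 3601 (12.5%) higher and 3040 (10.5%) lower without E8.5 replicate 3. Of the 4245 rises and 4652 falls, 2776 (65.4%) and 2422 (52.1%) were also called after the adjustment. The adjustment removes any change that genes of one span share, whatever its source, so both fits are given. Counts of list members below stand beside these shares of all tested genes, 14.7% higher and 16.1% lower without replicate 3 and 12.5% and 10.5% after the adjustment.

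**Figure D2:**
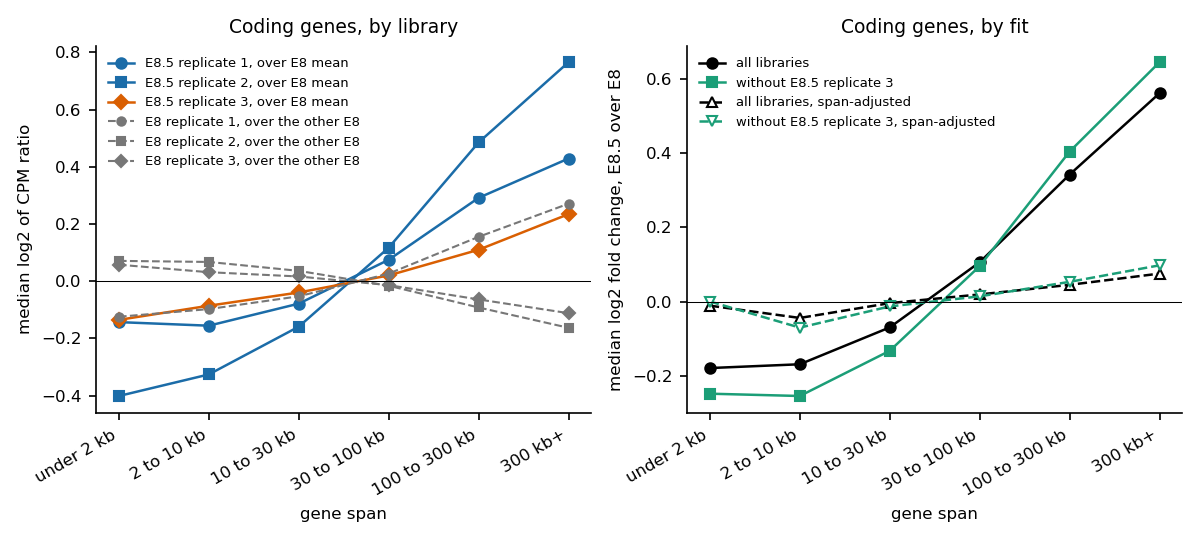
Median log2 change of coding genes in 6 classes of gene span. Left, each E8.5 library over the E8 mean and each E8 library over the other E8 libraries, as log2 of a CPM ratio; right, the fitted log2 fold change with and without E8.5 replicate 3 and with and without span-adjusted offsets. The medians climb with span in all E8.5 libraries and flatten after the adjustment.

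Called in all 4 fits (with and without E8.5 replicate 3, each with and without span adjustment) were 105 rises, 72 of them coding, and 39 falls, 25 of them coding. Genes named from these had to have groups that do not overlap, so their separation was fixed by the choice. One of the 10 largest coding rises with separate groups was Bicc1, an RNA-binding protein with roles in left-right patterning and kidney tubules (GRCm38, chromosome 10, 70922832 to 71159700). It had 22.1, 23.1 and 21.8 CPM in E8.5 replicates 1, 2 and 3, against 12.3, 10.8 and 11.4 CPM in the E8 replicates. All E8.5 libraries lay well above all E8 libraries, with replicate 3 beside the other two (0.95 ± 0.09, adjusted p = 0.0102 with all libraries; 0.94 ± 0.10, 0.000538 without replicate 3; 0.51 span-adjusted). Bnc2, the zinc-finger factor basonuclin 2 of mesenchymal cells, had 11, 13.3 and 18.3 CPM at E8.5 and 4.46, 3.35 and 3.47 CPM at E8, with replicate 3 the highest (1.92 ± 0.22, adjusted p = 0.0145 with all libraries; 1.66 ± 0.20 without replicate 3). The rest of the 10 largest coding rises were Apoa4, Amelx, Arhgap6, Pdzk1, Med12l, Zfp385b, B3galt1 and Pdzrn3. Apoa4, an apolipoprotein, had 1.55, 0.647 and 14.7 CPM at E8.5 and 0.0859, 0.103 and 0.0718 CPM at E8 and goes with the visceral endoderm markers. Arhgap6, a GTPase-activating protein, had 640.3, 994 and 557 CPM at E8.5 and 344, 262 and 278 CPM at E8. The tooth-enamel gene Amelx lies inside Arhgap6 on the other strand, and the reads of the pair cannot be told apart, since the strand setting of the counts is not given in the sources used here. Further libraries were left out one at a time beside E8.5 replicate 3, and calls of described genes that this ended are given at the end of each account. Arhgap6 and B3galt1 did not pass when E8.5 replicate 2 was left out as well (adjusted p = 0.0550 to 0.0580).

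The 10 largest falls among genes annotated as coding, chosen with the same condition of separate groups, were smaller. Mocs1, an enzyme of molybdenum cofactor synthesis (GRCm38, chromosome 17, 49428362 to 49455435), had 22.0, 30.8 and 28.6 CPM at E8.5 and 51.7, 48.3 and 49.8 CPM at E8, so that all E8.5 libraries lay below all E8 libraries (-0.88 ± 0.11, adjusted p = 0.0197 with all libraries; -0.95 ± 0.12, 0.000855 without replicate 3). Mex3b, an RNA-binding protein, had 17.2, 16.0 and 17.5 CPM at E8.5 and 23.5, 25.7 and 25.4 CPM at E8 (-0.56 ± 0.07, adjusted p = 0.0145 with all libraries). Ndufa1 and Romo1 act in mitochondria: Ndufa1, a subunit of respiratory complex I, fell by 0.57 and Romo1, a small inner-membrane protein, by 0.59 on the log2 scale with all libraries. Platr25, Med31, Zfp213, Pdcd5, Hcfc1r1 and Gpsm1 made up the 10, with changes of -0.63 to -0.44. Without E8 replicate 3 the all-library calls of Bicc1, Bnc2, Mocs1 and Mex3b ended (adjusted p = 0.135). Those of Bnc2, Mocs1 and Mex3b also ended without E8 replicate 2 (adjusted p = 0.0513 to 0.0528). The same calls ended with E8 and E8.5 fitted alone (adjusted p = 0.0638 to 0.155). In the fit without E8.5 replicate 3 none of the 4 was lost with any further E8, E9.5 or E14 library left out.

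Among 20 cardiac transcription factors, 6 were higher and 4 lower at E8.5 without replicate 3 (median 0.13, against -0.02 over all genes), 6 and 2 after span adjustment, and 0 were called with all libraries (median 0.08). Gata4, the zinc-finger factor required in mice for the heart tube to fuse at the midline (GRCm38, chromosome 14, 63198922 to 63271692), had 304, 303 and 191 CPM in E8.5 replicates 1, 2 and 3, against 197, 193 and 192 CPM in the E8 replicates. Replicates 1 and 2 lay above every E8 library and replicate 3 at their level (0.61 ± 0.10, adjusted p = 0.00147 without replicate 3; 0.46 ± 0.15, 0.0911 with all libraries; 0.45 span-adjusted). Its partner Zfpm2 (Fog2) had 316, 390.2 and 230.2 CPM at E8.5 and 192, 143 and 147 CPM at E8, and all E8.5 libraries were above all E8 libraries (1.10 ± 0.19, adjusted p = 0.00272 without replicate 3, and 0.0506 with all libraries). Tbx5, the T-box factor of the inflow and future left chambers, had 94.8, 106 and 57.1 CPM at E8.5 and 61.4, 64.6 and 62.3 CPM at E8 (0.65 ± 0.12, adjusted p = 0.00296 without replicate 3; 0.145 with all libraries), again with replicate 3 below all E8 libraries. Mef2c, a MADS-box factor of early myocardium, had 312, 421 and 358 CPM at E8.5 and 347, 297 and 307 CPM at E8 and did not pass (adjusted p = 0.411 without replicate 3).

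The bHLH factors Hand1 and Hand2 went opposite ways without E8.5 replicate 3. Hand1, of the outer curvature and left ventricle, had 22.4, 20.2 and 17.2 CPM at E8.5 and 14.7, 16.5 and 16.0 CPM at E8 (0.41 ± 0.08, adjusted p = 0.00477), and all E8.5 libraries were above all E8 libraries. Hand2, more of the right ventricle and second heart field, had 38.8, 38.1 and 33.8 CPM at E8.5 and 41.3, 48.6 and 47.9 CPM at E8 (-0.29 ± 0.09, adjusted p = 0.0299), but not after span adjustment (-0.10, 0.385). Prdm16 (1.06 ± 0.17) and Mef2a (0.57 ± 0.11), a chromatin regulator and a MADS-box factor of muscle genes, also rose. Hey1 (-0.51 ± 0.11), Hey2 (-0.29 ± 0.10) and Srf (-0.26 ± 0.09) fell; Hey2 and Srf did not pass after span adjustment (adjusted p = 0.287 and 0.563). Hand2, Hey2 and Srf did not pass when E8 replicate 2, E8 replicate 3 or E8.5 replicate 2 was left out as well (adjusted p = 0.0855 to 0.335). Hey2 and Srf did not pass when E14 replicate 2 or E14 replicate 3 was left out as well (adjusted p = 0.0505 to 0.0608). Srf did not pass when E9.5 replicate 2 or E14 replicate 1 was left out as well (adjusted p = 0.0537 to 0.0577). Hand2 and Srf did not pass when E8.5 replicate 1 was left out as well (adjusted p = 0.0682 to 0.121).

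Of 20 second heart field genes 4 fell and 1 rose without E8.5 replicate 3, against 16.1% and 14.7% of all genes tested (median -0.38). After span adjustment 2 fell and 0 rose, and with all libraries 1 fell. That 1 was Isl1 (GRCm38, chromosome 13, 116298281 to 116309689), with 10.3, 13.5 and 16.7 CPM in E8.5 replicates 1, 2 and 3, against 23.4, 23.7 and 23.0 CPM in the E8 replicates. All E8.5 libraries were below all E8 libraries, replicate 3 the nearest (-1.01 ± 0.12, adjusted p = 0.000705 without replicate 3; -0.83 span-adjusted). With all libraries the call of Isl1 (-0.79 ± 0.14, adjusted p = 0.0418) ended after span adjustment (-0.68, 0.0557). Nkx2-6, a relative of Nkx2-5 expressed in the pharyngeal region and outflow tract, had 2.35, 3.54 and 4.25 CPM at E8.5 and 7.23, 7.11 and 7.21 CPM at E8, with the same order of libraries (-1.32 ± 0.19, adjusted p = 0.00124 without replicate 3; -1.09 ± 0.21, 0.0454 with all libraries, and 0.0575 with all libraries after span adjustment). Osr1 (-0.65 ± 0.16) and Foxf1 (-0.72 ± 0.20), transcription factors of pharyngeal and posterior mesoderm, fell without replicate 3, while in replicate 3 Foxf1 reached 6.82 CPM, above all E8 libraries. The stem-cell receptor Lgr5 was the rise (0.66 ± 0.22), and none of Osr1, Foxf1 and Lgr5 passed after span adjustment (adjusted p = 0.0667 to 0.342). Fgf10, a growth factor of this field, did not pass (0.50 ± 0.20, adjusted p = 0.0811). Foxf1 and Lgr5 did not pass when E8 replicate 2, E8 replicate 3 or E8.5 replicate 1 was left out as well (adjusted p = 0.0601 to 0.138). Lgr5 did not pass when E8 replicate 1, E8.5 replicate 2 or E9.5 replicate 2 was left out as well (adjusted p = 0.0515 to 0.138).

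**Figure D3:**
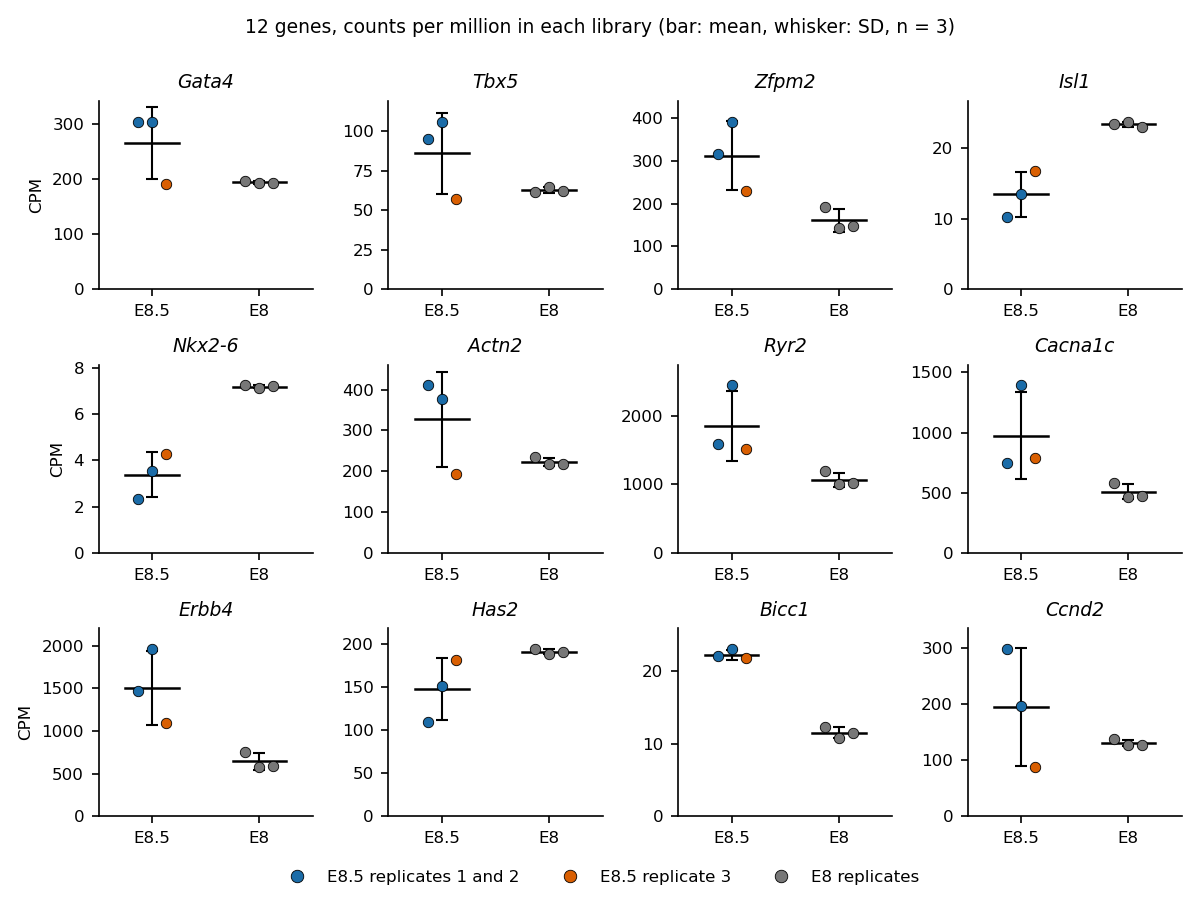
CPM of 12 genes in each library at E8.5 (left in each panel) and E8 (right), with the mean and SD of 3 libraries; the vertical axes start at 0. E8.5 replicate 3 (orange) lies at the E8 level for Gata4, Tbx5 and Actn2, and beside or nearer to the other E8.5 libraries for Bicc1, Isl1 and Nkx2-6.

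Sarcomere genes, the contractile apparatus, went both ways. Of 35 sarcomere genes 5 rose and 4 fell without E8.5 replicate 3 (median -0.13), against 14.7% and 16.1% of all genes tested, 8 and 3 after span adjustment, and 0 passed with all libraries. Actn2, the Z-disc crosslinker alpha-actinin 2 (GRCm38, chromosome 13, 12269426 to 12340760), had 410.3, 378 and 194 CPM in E8.5 replicates 1, 2 and 3, against 235, 219 and 217 CPM in the E8 replicates, with replicate 3 below all E8 libraries and the other two far above (0.79 ± 0.08, adjusted p = 0.000538 without replicate 3; 0.55 ± 0.21, 0.116 with all libraries; 0.63 span-adjusted). Ldb3 (0.50 ± 0.10), Tmod1 (0.41 ± 0.07) and Nexn (0.30 ± 0.10), which organise or cap filaments, also rose. Tnnt1 (-0.48 ± 0.11), the slow skeletal troponin T, Ankrd1 (-0.41 ± 0.11), Tcap (-0.39 ± 0.11) and Tpm1 (-0.31 ± 0.09) fell; Tnnt1, Ankrd1 and Tcap did not pass after span adjustment (adjusted p = 0.0573 to 0.196). The myosins did not pass: Myh6 had 2428, 2818 and 2758 CPM at E8.5 and 2676, 3238 and 3138 CPM at E8 (adjusted p = 0.142 without replicate 3), and Myh7 had 3092, 3099 and 3011 CPM at E8.5 and 2548, 3192 and 3042 CPM at E8 (0.840). Nor did Tnnt2, Myl7, Myl2, Actc1 or the natriuretic peptide gene Nppa (adjusted p = 0.0640 to 0.881). Titin, Ttn, had 4825, 10610 and 14420 CPM in E8.5 replicates 1, 2 and 3 and 9697, 8628 and 8681 CPM at E8 (-0.25 ± 0.29, adjusted p = 0.542 without replicate 3, and -0.76, 0.0271 after span adjustment). Its E8.5 libraries lay on both sides of E8. Nexn did not pass when E8 replicate 1, E9.5 replicate 2 or E14 replicate 3 was left out as well (adjusted p = 0.0563 to 0.102). Nexn, Tcap and Tpm1 did not pass when E8 replicate 2 or E8.5 replicate 2 was left out as well (adjusted p = 0.0685 to 0.368). Ankrd1 did not pass when E8.5 replicate 1 was left out as well (adjusted p = 0.0904). Nexn, Ankrd1, Tcap and Tpm1 did not pass when E8 replicate 3 was left out as well (adjusted p = 0.0507 to 0.0904).

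Without E8.5 replicate 3, genes of calcium handling and excitability were mostly higher: 18 of 30 rose and 0 fell (median 0.46, against -0.02 over all genes). After span adjustment 9 rose and 1 fell (median 0.26), while with all libraries 0 passed (median 0.24). In replicate 3 itself 8 of the 18 were above the E8 mean, against 66.0% of all rises. Slc8a1, the sodium-calcium exchanger that gives the first heartbeats their calcium cycling, had 3844, 6085 and 3771 CPM in E8.5 replicates 1, 2 and 3, against 2758, 2240 and 2313 CPM in the E8 replicates; all E8.5 libraries were above all E8 libraries (1.0 ± 0.28, adjusted p = 0.0234 without replicate 3; 0.0690 with all libraries; 0.52, 0.0987 span-adjusted). Ryr2, the calcium release channel, had 1584, 2438 and 1519 CPM at E8.5 and 1186, 1001 and 1017 CPM at E8, with the same separation (0.88 ± 0.22; span-adjusted 0.29, adjusted p = 0.130). Cacna1c, the main L-type calcium channel, had 744, 1392 and 785 CPM at E8.5 and 584, 468 and 476 CPM at E8 (1.04 ± 0.34; span-adjusted 0.42, adjusted p = 0.205). The calls of these 3 thus ended with the adjustment.

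Rises that held after span adjustment were those of the calcium channel subunits Cacnb2 (1.33 ± 0.33; span-adjusted 0.79), Cacna1h (0.55 ± 0.10; 0.44) and Cacna2d1 (0.78 ± 0.15; 0.24), the potassium channels Kcnj3 (1.43 ± 0.25; 1.09) and Kcnh2 (0.36 ± 0.10; 0.39), the junctional membrane protein Jph2 (0.58 ± 0.10; 0.45), the kinase Camk2d (0.79 ± 0.13; 0.35) and the connexin Gjc1 (0.30 ± 0.07; 0.41). Kcnd2, a transient outward potassium channel outside the list, had 8.46, 9.74 and 3.88 CPM at E8.5 and 3.46, 3.19 and 3.14 CPM at E8 (1.45 ± 0.20; 0.89). Kcnd2 did not pass with all libraries (adjusted p = 0.0579). Hcn4, the pacemaker channel, did not pass (0.23 ± 0.22, adjusted p = 0.473). Jph2 had 246, 266 and 137 CPM at E8.5 and 164, 169 and 169 CPM at E8, replicate 3 again below E8. Cacna1c did not pass when E9.5 replicate 2, E14 replicate 2 or E14 replicate 3 was left out as well (adjusted p = 0.0505 to 0.0649). Slc8a1, Cacna1c and Cacnb2 did not pass when E8 replicate 2 or E8 replicate 3 was left out as well (adjusted p = 0.0512 to 0.120). Cacna1c and Kcnh2 did not pass when E8 replicate 1 was left out as well (adjusted p = 0.0509 to 0.0576). Kcnh2 did not pass when E8.5 replicate 1 was left out as well (adjusted p = 0.104). Slc8a1, Ryr2, Cacna1c and Cacnb2 did not pass when E8.5 replicate 2 was left out as well (adjusted p = 0.147 to 0.399).

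Erbb4, the myocardial receptor for neuregulin (GRCm38, chromosome 1, 68032186 to 69108059), rose with and without E8.5 replicate 3. It had 1465, 1961 and 1091 CPM in E8.5 replicates 1, 2 and 3, against 759, 580.3 and 595 CPM in the E8 replicates, and every E8.5 library exceeded every E8 library (1.38 ± 0.25, adjusted p = 0.00344 without replicate 3; 1.22 ± 0.25, 0.0488 with all libraries; 0.72, 0.00880 without replicate 3 and span-adjusted). The call with all libraries ended after span adjustment (0.63, adjusted p = 0.0696). Of 13 genes of the neuregulin and ErbB list 1 rose and 0 fell with all libraries, and 2 rose and 3 fell without replicate 3. The other rise was Nrg2 (0.86 ± 0.19), and the falls were Erbb3 (-0.72 ± 0.23), Hbegf (-0.40 ± 0.07) and Nrg4 (-0.31 ± 0.08). Dmd, dystrophin, and Ctnna3, alpha-T-catenin of cardiac cell contacts, are very long genes that rose without E8.5 replicate 3. Dmd had 216, 277 and 111 CPM at E8.5 and 97.1, 73.4 and 75.8 CPM at E8 (1.55 ± 0.22; span-adjusted 0.80, adjusted p = 0.00127), and Ctnna3 had 513, 775 and 379 CPM at E8.5 and 269, 204 and 212 CPM at E8 (1.47 ± 0.33; 0.74, 0.0214). Lrrtm3, which lies inside Ctnna3 and can share its reads, rose too (1.46). Sspn, sarcospan of the dystrophin complex, went down, with 61.0, 56.2 and 94.2 CPM at E8.5 and 111, 152 and 148 CPM at E8 (-1.26 ± 0.19, adjusted p = 0.00175). None of Dmd, Ctnna3, Lrrtm3 and Sspn passed with all libraries (adjusted p = 0.0515 to 0.0551). Glp1r, the glucagon-like peptide receptor, had 4.98, 6.83 and 2.42 CPM at E8.5 and 1.17, 1.25 and 1.08 CPM at E8 with every E8.5 library higher (2.30 ± 0.16 without replicate 3; span-adjusted 2.31; 2.02 ± 0.29 with all libraries, adjusted p = 0.0278). Erbb3 did not pass after span adjustment (adjusted p = 0.0680). Erbb3 did not pass when E8.5 replicate 1 or E14 replicate 3 was left out as well (adjusted p = 0.0512 to 0.140). Erbb3 and Lrrtm3 did not pass when E8 replicate 2 or E8 replicate 3 was left out as well (adjusted p = 0.0693 to 0.0941). Nrg2, Erbb3, Nrg4, Ctnna3 and Lrrtm3 did not pass when E8.5 replicate 2 was left out as well (adjusted p = 0.0921 to 0.174).

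Cardiac jelly and basement membrane genes were split, with 6 of 24 higher and 3 lower without E8.5 replicate 3, but 1 higher and 6 lower after span adjustment. Has2, which makes the hyaluronan of the jelly, had 110.1, 152 and 181 CPM in E8.5 replicates 1, 2 and 3, against 194, 188 and 190.4 CPM in the E8 replicates, and all E8.5 libraries were lower (-0.58 ± 0.13, adjusted p = 0.00736 without replicate 3; -0.37 ± 0.15, 0.131 with all libraries). Vcan, the proteoglycan versican that binds it, did not pass (0.12 ± 0.12, adjusted p = 0.454). Postn, periostin of cushion and mesenchymal matrix, had 9.24, 10.1 and 13.5 CPM at E8.5 and 5.12, 5.42 and 5.71 CPM at E8, higher in each E8.5 library (0.80 ± 0.23, adjusted p = 0.0245 without replicate 3; 0.0506 with all libraries; 0.84 span-adjusted). Fn1, fibronectin, had 1013, 787 and 549.6 CPM at E8.5 and 692, 580.1 and 575 CPM at E8, with replicate 3 below E8 (0.52 ± 0.13, adjusted p = 0.0139). Lama2 was the member called with all libraries (0.63, adjusted p = 0.0461), and it did not pass after span adjustment with all libraries (0.11, 0.412) or without replicate 3 (0.15, 0.217). Of 22 endothelial and endocardial genes 5 rose and 0 fell (median 0.05; 3 and 0 span-adjusted; 0 with all libraries), among them Nfatc1 (0.68 ± 0.18), a factor of endocardial cells, and Eng (0.59 ± 0.14), a co-receptor of vessels. Replicate 3 was below E8 for both, at 35.0 and 27.0 CPM. The Notch list had 2 of 18 rises and 4 falls; Notch2 (0.45, adjusted p = 0.0418) and the target Hes1 (-0.43, 0.0490) were called with all libraries, but not after span adjustment (adjusted p = 0.139 and 0.0706). Fn1, Nfatc1 and Notch2 did not pass after span adjustment (adjusted p = 0.0561 to 0.176). Postn, Fn1 and Nfatc1 did not pass when E8 replicate 2 or E8 replicate 3 was left out as well (adjusted p = 0.0552 to 0.0658). Postn did not pass when E8 replicate 1 was left out as well (adjusted p = 0.0573). Postn, Fn1, Nfatc1 and Eng did not pass when E8.5 replicate 1 was left out as well (adjusted p = 0.0675 to 0.131). Postn and Hes1 did not pass when E8.5 replicate 2 was left out as well (adjusted p = 0.0514 to 0.147).

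In the FGF list 7 of 21 fell and 3 rose without E8.5 replicate 3 (8 and 3 after span adjustment), and the falls included Spry1 (-0.84 ± 0.13), Spry2 (-0.53 ± 0.11), Dusp6 (-0.44 ± 0.07), Etv4 (-0.52 ± 0.12) and Etv5 (-0.30 ± 0.08), which FGF signalling induces in many tissues. Dusp6, a phosphatase of ERK, had 49.5, 44.8 and 51.6 CPM in E8.5 replicates 1, 2 and 3, against 61.6, 63.5 and 62.7 CPM in the E8 replicates. All E8.5 libraries were lower, replicate 3 included, and Dusp6 (adjusted p = 0.0454) and Spry2 (0.0454) were the 2 falls of the list with all libraries, and neither passed with all libraries after span adjustment (0.0515 and 0.0676). The ligand Fgf8, itself of the second heart field, did not pass (-0.41 ± 0.24, adjusted p = 0.215), and Fgf12 (1.2 ± 0.14), Fgf9 (1.07 ± 0.19) and Spred2 (0.97 ± 0.17) rose.

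In the BMP list 6 of 22 rose and 5 fell without E8.5 replicate 3 (3 and 2 span-adjusted). The rises were receptors, ligands and an inhibitory Smad, Bmpr1b (0.89 ± 0.15), Acvr1 (0.85 ± 0.13), Bmpr2 (0.44 ± 0.09), Bmp6 (0.83 ± 0.20), Bmp7 (0.27 ± 0.09) and Smad6 (0.50 ± 0.15), and the falls were the target genes Id1 (-0.53 ± 0.11), Id2 (-0.36 ± 0.12), Id3 (-0.55 ± 0.10), Id4 (-0.59 ± 0.17) and Bambi (-0.40 ± 0.10). Bmp4 and its target Msx1 did not pass (adjusted p = 0.106 and 0.325). After span adjustment Bmpr1b, Acvr1 and Bmp6 were still called higher and Id3 (adjusted p = 0.00590) and Bambi (0.0384) lower. In the Wnt list 5 of 20 rose and 5 fell; the inhibitor Dkk1 had 1.63, 1.51 and 2.75 CPM at E8.5 and 3.10, 3.28 and 3.42 CPM at E8 (-1.09 ± 0.20), all E8.5 libraries being lower, and the effector Lef1 had 57.3, 73.0 and 39.8 CPM at E8.5 and 42.1, 37.5 and 37.0 CPM at E8 (0.72 ± 0.18; adjusted p = 0.0513 after span adjustment). Retinoic acid genes counted 3 rises and 3 falls of 17. Of the rises Rbp4 (2.32 ± 0.50) is also a visceral endoderm marker, at 29.0 CPM in E8.5 replicate 3. The binding proteins Crabp1 (-0.86 ± 0.27) and Crabp2 (-0.85 ± 0.13) and the degrading enzyme Cyp26a1 (-0.82 ± 0.18) fell. Semaphorin, Eph and Slit guidance genes had 12 of 27 rises and 2 falls, but 1 and 4 after span adjustment. With all libraries 1 gene rose and 0 fell in the BMP list, and 1 and 0 in the guidance list. In the Wnt and retinoic acid lists 0 were called with all libraries. Bmpr2, Bmp7, Smad6, Id1, Id2, Id4 and Crabp1 did not pass after span adjustment (adjusted p = 0.0639 to 0.417). Bmp7 and Crabp1 did not pass when E8 replicate 1, E9.5 replicate 2 or E14 replicate 3 was left out as well (adjusted p = 0.0517 to 0.101). Bmp7, Smad6, Id2, Id4, Lef1 and Crabp1 did not pass when E8 replicate 2 or E8 replicate 3 was left out as well (adjusted p = 0.0546 to 0.0985). Crabp1 did not pass when E14 replicate 1 or E14 replicate 2 was left out as well (adjusted p = 0.0512 to 0.0523). Bmp6, Bmp7, Smad6, Id1, Id2, Id4, Bambi, Lef1 and Crabp1 did not pass when E8.5 replicate 2 was left out as well (adjusted p = 0.0630 to 0.320). Etv4, Etv5, Bmp7, Smad6, Rbp4 and Crabp1 did not pass when E8.5 replicate 1 was left out as well (adjusted p = 0.0518 to 0.189).

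Hox genes, which mark position along the trunk, were low in all libraries, most of them under 1 CPM. Of 24 tested 7 rose and 2 fell without E8.5 replicate 3 (median 0.87; 8 and 0 span-adjusted), and 2 rose with all libraries (median 1.10). Hoxd3 had 0.578, 0.869 and 0.651 CPM in E8.5 replicates 1, 2 and 3, against 0.353, 0.292 and 0.239 CPM in the E8 replicates, so that all E8.5 libraries were higher (1.26 ± 0.39, adjusted p = 0.0310 without replicate 3; 0.0691 with all libraries). Its neighbour Hoxd4 had 0.365, 0.564 and 0.326 CPM at E8.5 and 0.239, 0.180 and 0.160 CPM at E8 (1.24 ± 0.32). Hoxc8 (0.136, 0.111 and 1.21 CPM at E8.5, 0.0286, 0.00858 and 0.0319 CPM at E8) and Hoxc5 overlap on the chromosome, so that their reads are shared, and both were highest in replicate 3. Hoxb2 (-0.63 ± 0.15) and Hoxa2 (-0.97 ± 0.34), of more anterior positions, fell. The left-right list had 1 rise and 2 falls of 16 genes, and the ligand genes Nodal and Lefty2 did not pass (adjusted p = 0.400 and 0.0609). Of earlier programmes, primitive streak genes gave 0 rises and 3 falls of 14 and pluripotency genes 1 and 2 of 16, and of 11 DNA methylation enzymes 2 rose and 1 fell. With all libraries 0 genes of these lists or of the left-right list were called. Dnmt3b, the de novo methyltransferase that the series' title names, had 30.8, 37.5 and 55.6 CPM at E8.5 and 39.2, 40.8 and 40.5 CPM at E8 and did not pass (-0.26 ± 0.12, adjusted p = 0.109), with replicates 1 and 2 below and replicate 3 above all E8 libraries. Hoxb2 and Hoxa2 did not pass after span adjustment (adjusted p = 0.0666 to 0.119). Hoxa2 did not pass when E8 replicate 1, E9.5 replicate 2, E14 replicate 2 or E14 replicate 3 was left out as well (adjusted p = 0.0575 to 0.0664). Hoxd3, Hoxd4 and Hoxa2 did not pass when E8 replicate 3 or E8.5 replicate 2 was left out as well (adjusted p = 0.0526 to 0.219). Hoxb2 and Hoxa2 did not pass when E8.5 replicate 1 was left out as well (adjusted p = 0.0668 to 0.164). Hoxd3 and Hoxa2 did not pass when E8 replicate 2 was left out as well (adjusted p = 0.0828 to 0.0898).

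Without E8.5 replicate 3, more cell cycle and glycolysis genes fell than rose. Of the 17 cell cycle genes called, replicate 3 was on the same side of the E8 mean for 9. For glycolysis it was on the same side for 9 of the 11 called. Over all genes called the share was 66.0% of the rises and 69.1% of the falls. Of 28 cell cycle genes 16 fell and 1 rose without E8.5 replicate 3 (median -0.30; 11 and 3 span-adjusted; 0 called with all libraries). They ranged from -0.28 for the replication licensing gene Mcm3 to -0.67 for the cyclin kinase inhibitor Cdkn1c. Pcna, the replication clamp, had 88.7, 83.6 and 121 CPM in E8.5 replicates 1, 2 and 3, against 119, 120.5 and 122 CPM in the E8 replicates (-0.52 ± 0.10, adjusted p = 0.00292). Cdkn1c had 377, 375 and 487 CPM at E8.5 and 556, 606 and 588 CPM at E8 (-0.67 ± 0.10, 0.00142). In the D cyclins Ccnd1 fell (-0.45 ± 0.08) and Ccnd2 was the rise (0.89 ± 0.13), with 299, 196 and 88.1 CPM at E8.5 and 137, 127 and 128 CPM at E8. Replicate 3 had the least Ccnd2 of the 6 libraries. Glycolysis genes fell in 10 of 20 cases and rose in 1 without replicate 3 (median -0.28), against 8 and 0 span-adjusted, and 0 were called with all libraries. The falls included Pkm (-0.47 ± 0.09), Pgk1 (-0.45 ± 0.10) and Ldha (-0.41 ± 0.10). The glucose transporter Slc2a3 had 209.5, 280.0 and 851 CPM at E8.5 and 341, 367 and 359 CPM at E8 (-0.57 ± 0.13), with replicate 3 far above all others. Mcm3 did not pass after span adjustment (adjusted p = 0.0625). Mcm3 and Ldha did not pass when E8 replicate 2 or E8.5 replicate 2 was left out as well (adjusted p = 0.0531 to 0.128). Mcm3 did not pass when E8 replicate 3 was left out as well (adjusted p = 0.0674).

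Cytoplasmic ribosomal protein genes had the highest share of calls among the lists. Of 85 tested 82 fell and 0 rose without E8.5 replicate 3 (median -0.55), 74 and 0 after span adjustment (median -0.36), and with all libraries 0 were called although the median was -0.38. Their summed level was 17398, 14571 and 20597 CPM in E8.5 replicates 1, 2 and 3, against 21640, 23188 and 22914 CPM in the E8 replicates, so that all E8.5 libraries were lower and replicate 3 lay between. Rpl23 had 162, 149.8 and 229.5 CPM at E8.5 and 249, 265 and 261 CPM at E8 (-0.76 ± 0.09, adjusted p = 0.000704). Ribosomal protein genes have many processed copies that can share reads. Replication-dependent histones fell in 28 of 69 cases and rose in 0 (median -0.29), but after span adjustment 7 fell and 3 rose (median -0.02), and their near-identical copies can also share reads. Small nucleolar RNAs, most of which lie in introns of host genes, ribosomal protein genes among them, gave 53 falls and 2 rises of 132 without E8.5 replicate 3, against 15 and 5 span-adjusted. With all libraries 2 histone genes fell and 0 rose, and 3 small nucleolar RNAs fell and 0 rose.

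**Figure D4:**
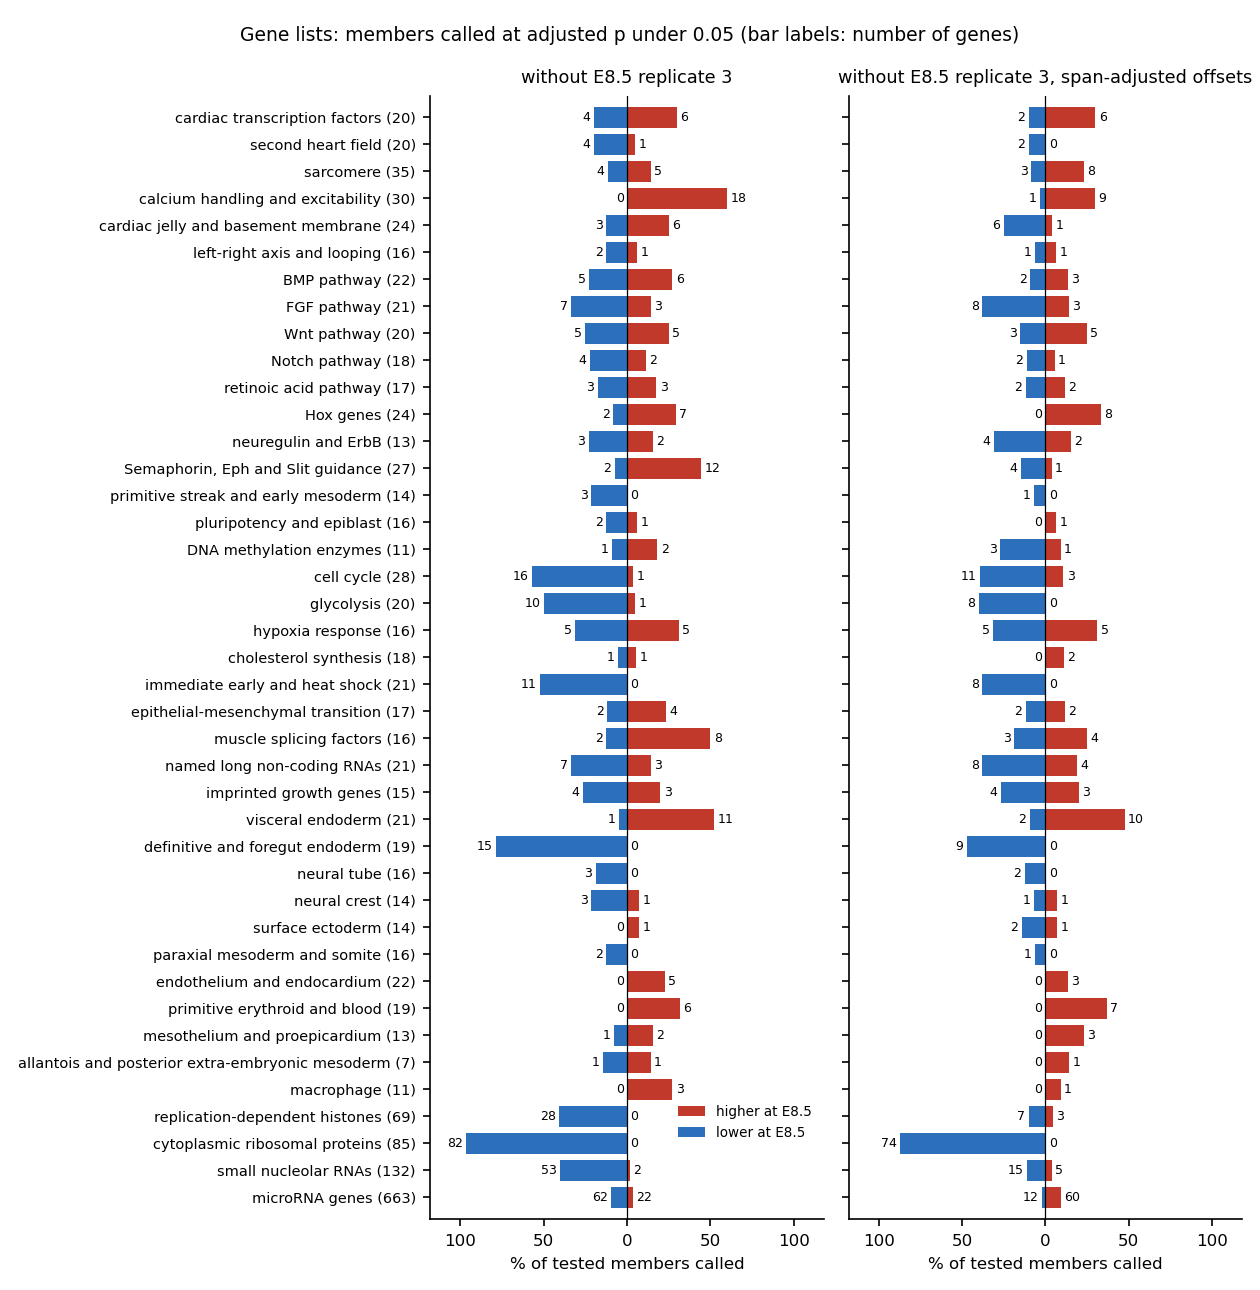
Share of the tested members of each gene list called higher (red, right) or lower (blue, left) at E8.5, without E8.5 replicate 3, before (left panel) and after (right panel) span adjustment; numbers in brackets are the genes tested and those on the bars the genes called. The called ribosomal protein and foregut genes are all on the lower side in both panels, while the rises of guidance genes are few in the right panel.

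Many immediate early genes, which cells switch on within minutes of a stimulus or of handling and which include transcription factors, were lower in E8.5 replicates 1 and 2. Of 21 genes of this list, which includes heat shock genes, 11 fell and 0 rose without replicate 3 (median -0.41; 8 and 0 span-adjusted), and 0 were called with all libraries. Fos had 9.92, 10.3 and 42.8 CPM in E8.5 replicates 1, 2 and 3, against 39.2, 44.7 and 44.6 CPM in the E8 replicates (-2.12 ± 0.20, adjusted p = 0.000549 without replicate 3; -1.03 ± 0.48, 0.186 with all libraries). Fosb had 1.05, 1.75 and 11.7 CPM at E8.5 and 16.6, 18.1 and 18.2 CPM at E8 (-3.69 ± 0.75). Egr1 had 4.79, 3.19 and 19.6 CPM at E8.5 and 9.59, 10.5 and 11 CPM at E8 (-1.41 ± 0.20). Replicate 3 was at the E8 level for Fos, below it for Fosb and above it for Egr1. Smaller falls were those of Junb (-0.90 ± 0.11), Cyr61 (-0.54 ± 0.07), Dusp1 (-0.49 ± 0.08) and Atf3 (-0.43 ± 0.10), all of which were above the E8 libraries in replicate 3. Fosb did not pass when E8.5 replicate 2 was left out as well (adjusted p = 0.0505).

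Foregut and definitive endoderm genes went the same way. Of 19 tested 15 fell and 0 rose without E8.5 replicate 3 (median -0.89; 9 and 0 span-adjusted), and 0 were called with all libraries (median -0.17). Summed over the list the level was 230, 259 and 514 CPM in E8.5 replicates 1, 2 and 3, against 353, 383 and 368 CPM in the E8 replicates, with no marker at 0 in any of these libraries. This sum was below every E8 library in replicates 1 and 2 and above every E8 library in replicate 3. The sum does not speak for each member: 3 of the 15 genes called were below the E8 mean in replicate 3 as well. Over all falls called this share was 69.1%. Foxa2, the forkhead factor of endoderm, had 0.552, 1.02 and 4.42 CPM at E8.5 and 1.96, 1.97 and 2.18 CPM at E8 (-1.41 ± 0.26, adjusted p = 0.00305). Epcam, an epithelial adhesion molecule, had 2.84, 4.22 and 14 CPM at E8.5 and 8.52, 8.48 and 9.20 CPM at E8 (-1.34 ± 0.20, 0.00136). Nkx2-3, a homeobox factor of the pharyngeal floor, was low in all E8.5 libraries, with 1.30, 1.84 and 3.67 CPM against 4.96, 5.91 and 5.47 CPM at E8 (-1.83 ± 0.32, adjusted p = 0.00267; 0.0774 with all libraries). Pyy (-1.97 ± 0.52), Cldn4 (-1.64 ± 0.34), Cldn6 (-1.2 ± 0.29) and Pax9 of the pharyngeal pouches (-1.30 ± 0.34) also fell. The secreted peptide gene Apela, whose receptor acts in heart formation in fish, had 1.0, 3.02 and 12.6 CPM at E8.5 and 7.90, 7.28 and 7.78 CPM at E8 (-1.96 ± 0.52). Apela did not pass with all libraries (adjusted p = 0.693). Pyy did not pass after span adjustment (adjusted p = 0.0544). Pyy did not pass when E8 replicate 2 was left out as well (adjusted p = 0.0541). Pyy and Apela did not pass when E8 replicate 3 was left out as well (adjusted p = 0.0525 to 0.0552). Pyy, Cldn6, Pax9 and Apela did not pass when E8.5 replicate 1 was left out as well (adjusted p = 0.0689 to 0.0879).

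Visceral endoderm markers rose in 11 of 21 cases and fell in 1 even without E8.5 replicate 3 (median 1.28; 10 and 2 span-adjusted), and 2 were called with all libraries (median 3.38). Apob had 54.3, 23.5 and 658 CPM in E8.5 replicates 1, 2 and 3, against 7.15, 6.68 and 6.81 CPM in the E8 replicates (2.47 ± 0.44, adjusted p = 0.00448 without replicate 3; 5.16 ± 1.12, 0.0515 with all libraries). Afp, alpha-fetoprotein, had 25.5, 5.66 and 246 CPM at E8.5 and 1.23, 1.67 and 1.41 CPM at E8 and did not pass in either fit (adjusted p = 0.0872 and 0.0639). Replicate 1 exceeded replicate 2 for each of Apob, Cubn and Afp. The fall was Spink1, with 2.70, 2.96 and 25.5 CPM at E8.5 and 6.25, 5.70 and 6.11 CPM at E8 (-1.12 ± 0.26), which followed the foregut genes.

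The summed level of blood genes was higher at E8.5. Of 19 primitive erythroid and blood genes 6 rose and 0 fell without E8.5 replicate 3 (median 1.05; 7 and 0 span-adjusted), and 0 were called with all libraries. The sum was 1096, 1326.5 and 758 CPM in E8.5 replicates 1, 2 and 3, against 590, 630 and 623 CPM in the E8 replicates. All E8.5 libraries were above all E8 libraries, replicate 3 the least. Slc4a1, the anion exchanger of red cells, had 28.3, 34.9 and 10.2 CPM at E8.5 and 11.1, 12.1 and 11.8 CPM at E8 (1.41 ± 0.44, adjusted p = 0.0436), with replicate 3 below E8. Rhag (1.60 ± 0.42), Ank1 (1.15 ± 0.22), Gfi1b (1.05 ± 0.30), Runx1 (1.04 ± 0.21) and Klf1 (0.80 ± 0.27) rose likewise. With Slc4a1 these were the 6 rises of the list without replicate 3. Its most abundant members, the globin genes Hbb-bh1, Hba-x, Hba-a1, Hbb-y and Hba-a2, were not among them. The adult-type globins Hbb-bs (35.6, 38.2 and 6.23 CPM at E8.5, 12.2, 11.3 and 12.3 CPM at E8) and Hbb-bt, near-identical copies that can share reads, rose by 1.60 and 1.62 without replicate 3 (adjusted p = 0.211 and 0.206 with all libraries). Of 11 macrophage markers 3 rose, among them Adgre1 (1.08, 1.22 and 0.687 CPM at E8.5, 0.649, 0.489 and 0.463 CPM at E8), against 1 after span adjustment and 0 with all libraries. Ank1 and Adgre1 did not pass after span adjustment (adjusted p = 0.0514 to 0.0602). Among other cell types the calls were few: neural tube 0 rises and 3 falls of 16, neural crest 1 and 3 of 14, somite 0 and 2 of 16, surface ectoderm 1 and 0 of 14, mesothelium 2 and 1 of 13, and allantois 1 and 1 of 7. Of these cell types, 1 mesothelium gene rose with all libraries and 0 others were called. Klf1 did not pass when E14 replicate 1 or E14 replicate 2 was left out as well (adjusted p = 0.0535 to 0.0625). Slc4a1 and Klf1 did not pass when E9.5 replicate 2 or E14 replicate 3 was left out as well (adjusted p = 0.0513 to 0.0627). Slc4a1, Rhag, Gfi1b, Klf1, Hbb-bt and Adgre1 did not pass when E8 replicate 2 or E8 replicate 3 was left out as well (adjusted p = 0.0502 to 0.112). Slc4a1, Gfi1b and Klf1 did not pass when E8 replicate 1 was left out as well (adjusted p = 0.0591 to 0.0996). Slc4a1, Klf1 and Hbb-bt did not pass when E8.5 replicate 1 was left out as well (adjusted p = 0.0508 to 0.0836). Slc4a1, Rhag, Ank1, Gfi1b, Runx1, Klf1, Hbb-bs, Hbb-bt and Adgre1 did not pass when E8.5 replicate 2 was left out as well (adjusted p = 0.0502 to 0.250).

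**Figure D5:**
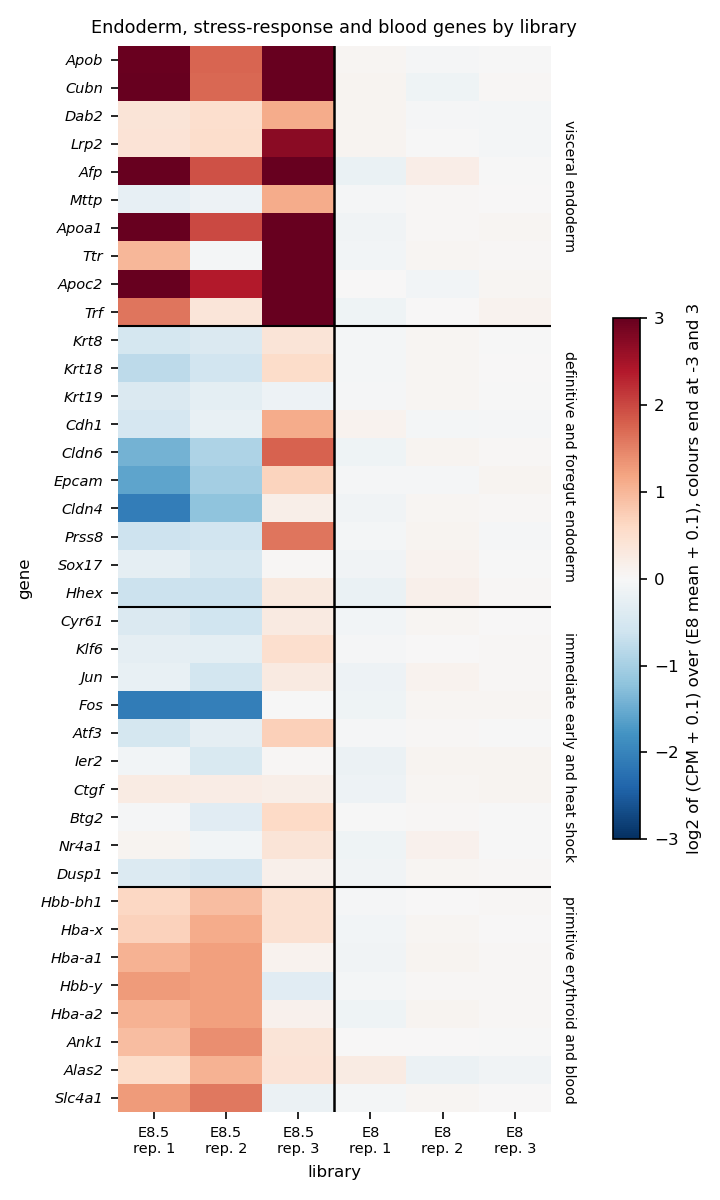
Log2 of each library's CPM (plus 0.1) over the E8 mean (plus 0.1) for the most abundant members of 4 lists, E8.5 libraries on the left and E8 on the right. E8.5 replicate 3 is red for visceral endoderm markers and pale or red where replicates 1 and 2 are blue for foregut and immediate early genes; the blood genes are red in replicates 1 and 2 and paler in replicate 3.

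Remaining lists were mixed. Of 16 hypoxia response genes 5 rose and 5 fell without E8.5 replicate 3: the oxygen sensors Egln1 (0.57 ± 0.07) and Egln3 (0.30 ± 0.09) rose, and the mitochondrial genes Bnip3 (-0.48 ± 0.09) and Higd1a (-0.51 ± 0.08) fell. Ndrg1 was called with all libraries too (0.75, adjusted p = 0.0383), with 3.39, 3.63 and 4.78 CPM at E8.5 and 2.32, 2.36 and 2.35 CPM at E8. Cholesterol synthesis genes gave 1 rise and 1 fall of 18, epithelial-mesenchymal transition genes 4 and 2 of 17, imprinted growth genes 3 and 4 of 15, and muscle splicing factors 8 and 2 of 16 (4 and 3 span-adjusted). Of the cholesterol, transition, imprinted and splicing lists 0 genes were called with all libraries. Rbpms, an RNA-binding regulator of muscle splicing, had 488, 639 and 295 CPM at E8.5 and 319, 262 and 269 CPM at E8 (0.96 ± 0.19; span-adjusted 0.61, adjusted p = 0.00913). H19, the imprinted long non-coding RNA, had 1896, 1924 and 2872 CPM at E8.5 and 2648, 3243 and 3151 CPM at E8 (-0.69 ± 0.11, adjusted p = 0.00172). Egln3 did not pass when E8 replicate 1, E8 replicate 2, E8 replicate 3 or E8.5 replicate 1 was left out as well (adjusted p = 0.0535 to 0.0689). Egln3 and Rbpms did not pass when E8.5 replicate 2 was left out as well (adjusted p = 0.0527 to 0.102).

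Of 4355 long non-coding RNAs tested 666 rose and 312 fell without E8.5 replicate 3, against 14.7% and 16.1% of all genes tested. After span adjustment 728 rose and 179 fell, and with all libraries, unadjusted for span, 25 and 8. The largest rises by the rule for named genes, Grip1os1, Grip1os2, Bach2it1 and C79798, lie inside the longer genes Grip1, Bach2 and Pbx3, which rose too (0.98, 0.82 and 0.62), and shared reads cannot be told apart. Xist, the RNA of X inactivation, had 219, 268 and 108 CPM in E8.5 replicates 1, 2 and 3, against 123, 92.9 and 94.1 CPM in the E8 replicates (1.2 ± 0.18, adjusted p = 0.00142), and its antisense partner Tsix overlaps it, with 219.8, 269 and 109 CPM at E8.5 and 124, 93.5 and 94.7 CPM at E8, so that the reads of the pair cannot be told apart. The Y-linked genes Ddx3y (21.5, 20.9 and 34.1 CPM at E8.5, 30.6, 29.6 and 29.6 CPM at E8; -0.53 ± 0.12), Eif2s3y (-0.72 ± 0.14) and Kdm5d (-0.48 ± 0.10) fell. Replicates 1 and 2 were thus high in Xist and low in Y-linked genes beside E8. The labels give no sex of the embryos, and its part in X-linked or Y-linked differences was not tested. Platr30 (19, 18.7 and 17.6 CPM at E8.5, 32.3, 29.1 and 32.1 CPM at E8) and Platr25, transcripts first tied to pluripotency, fell in the fits with all libraries as well (-0.76 and -0.63, adjusted p = 0.0278 and 0.0197). Has2os (-0.74 ± 0.13), which overlaps Has2, and Irx3os (-0.68 ± 0.14), beside Irx3, fell with their partners (-0.58 and -0.71). Bach2 and Pbx3 did not pass after span adjustment (adjusted p = 0.101 to 0.103). Bach2 and Pbx3 did not pass when E8 replicate 2 or E8 replicate 3 was left out as well (adjusted p = 0.0544 to 0.0849). Grip1, Bach2 and Pbx3 did not pass when E8.5 replicate 2 was left out as well (adjusted p = 0.133 to 0.259).

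Precursors of 2 microRNA clusters were among the non-coding falls. The miR-302/miR-367 cluster is a marker of the epiblast and of early progenitors and has been tied to proliferation of cardiac cells in mice, and the miR-17/miR-92 cluster, made from the transcript Mir17hg, acts in proliferation of cardiac progenitors. The mature sequences below (RefSeq, GRCm38.p6) are shown because the clusters share seeds, the bases 2 to 8 that pair with targets, in capitals. The counts cover the precursor intervals in total RNA, and mature miRNAs were not measured.
mmu-miR-302b-3p: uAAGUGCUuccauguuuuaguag
mmu-miR-302d-3p: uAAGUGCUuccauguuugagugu
mmu-miR-367-3p: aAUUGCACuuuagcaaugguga
mmu-miR-92a-3p: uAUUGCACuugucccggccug
mmu-miR-20a-5p: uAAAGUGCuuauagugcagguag
mmu-miR-19b-3p: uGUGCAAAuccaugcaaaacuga
The first 3 lie on chromosome 3 (chr3:127545275-127545297, chr3:127545665-127545687 and chr3:127545779-127545800, plus strand). The other 3 lie on chromosome 14 (chr14:115044476-115044496, chr14:115044183-115044205 and chr14:115044358-115044380, plus strand). miR-302b and miR-302d have the same seed, miR-367 of one cluster has the seed of miR-92a of the other, and the last 6 bases of the miR-20a seed are the first 6 of the miR-302 seed.

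All 5 precursors of the miR-302/miR-367 cluster fell without E8.5 replicate 3, by changes of -1.49 to -1.38, and 4 of the 5 after span adjustment; with all libraries 0 did (adjusted p = 0.137 to 0.168). Mir302d had 0.314, 0.740 and 1.28 CPM in E8.5 replicates 1, 2 and 3, against 1.40, 1.28 and 1.64 CPM in the E8 replicates (-1.49 ± 0.29, adjusted p = 0.00391), and Mir302b had 0.314, 0.823 and 1.32 CPM at E8.5 and 1.39, 1.28 and 1.66 CPM at E8 (-1.38 ± 0.32, 0.00773). Replicates 1 and 2 were below all E8 libraries and replicate 3 near them. The members' levels are almost equal in every library, so that their calls are one observation on the precursor and not 5. The cluster lies inside Larp7 on the other strand, an RNA-binding protein of the 7SK complex, which had 34.2, 40.6 and 55.8 CPM at E8.5 and 53.3, 57.3 and 57.0 CPM at E8 (-0.61 ± 0.09, adjusted p = 0.00121). Shared reads cannot be told apart. Mir17hg (GRCm38, chromosome 14, 115042879 to 115046727) had 12.1, 10.1 and 15.7 CPM at E8.5 and 17.7, 18.4 and 19.1 CPM at E8, lower in all E8.5 libraries (-0.76 ± 0.09, adjusted p = 0.000705 without replicate 3; -0.55 ± 0.13, 0.0515 with all libraries; -0.59 span-adjusted). Of 5 precursors tested inside it 3 fell, Mir92-1, Mir20a and Mir19b-1, and 1 did after span adjustment. Mir92-1 had 22, 16 and 31 counts in E8.5 replicates 1, 2 and 3, against 45, 52 and 49 counts in the E8 replicates, and the other two had fewer. Over all 663 microRNA genes tested 22 rose and 62 fell without E8.5 replicate 3, against 60 and 12 span-adjusted and 0 and 1 with all libraries. The named changes Mir3091 (-0.88 ± 0.10), Mir686 (-0.67 ± 0.11) and Mir3113 (0.79 ± 0.14) lie in the host genes Rps21, Psmb5 and Huwe1, which moved the same way without E8.5 replicate 3. Mir302b, Mir92-1, Mir20a and Huwe1 did not pass after span adjustment (adjusted p = 0.0522 to 0.646). Mir92-1 did not pass when E8 replicate 1 or E8 replicate 3 was left out as well (adjusted p = 0.0621 to 0.0675). Huwe1, Mir92-1 and Mir20a did not pass when E8 replicate 2 was left out as well (adjusted p = 0.0508 to 0.0856). Mir92-1 and Mir20a did not pass when E8.5 replicate 1 was left out as well (adjusted p = 0.0749 to 0.123). Psmb5, Huwe1 and Mir92-1 did not pass when E8.5 replicate 2 was left out as well (adjusted p = 0.0899 to 0.181).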

How the data were processed

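The deposited values are whole-number read counts per gene interval for 12 libraries, in the table the authors deposited with GRCm38 coordinates, and gene span is taken as end minus start plus 1. Per the submitters' processing notes, STAR 2.5.0 and Cufflinks 2.2.1 were used and the builds GRCm38, mm10 and hg38 are named; how reads were counted, whether by strand and on which annotation release, is not given in the sources used here. Of 48709 intervals, 42778 were matched to the reference annotation by position and 5645 by symbol, and 21428 overlap another interval, so that reads may be shared. Library sizes are the sums of all gene counts.

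Counts were fitted with edgeR 4.0.16 (R 4.3.3): filterByExpr over the 12 libraries, TMM factors, a mean per stage, the robust quasi-likelihood test of E8.5 against E8 and Benjamini-Hochberg adjustment over 28846 intervals, with a threshold of 0.05. The fit was repeated without E8.5 replicate 3, and each fit with span-adjusted offsets (a lowess curve of each library on log span, smoothing fraction 0.3). The steps were tested on simulated data. Replicates were checked against each other: they differed beyond sampling noise, so each library counts as 1. Alternatives were other scale factors, filters, libraries and features, DESeq2 1.42.0, a replicate block and leaving out each library; an alternative for the relation with span was chosen after seeing the data.

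Genes named are the 10 largest coding rises and falls called in all 4 fits with groups that do not overlap and at least 5 CPM, the 12 largest without E8.5 replicate 3 called with and without span adjustment, up to 5 members of each of the 41 lists, 25 heart genes, non-coding genes by the same criteria, and the 10 coding genes furthest apart in replicate 3 in each direction; further members of a list were added after their values were seen, and some genes that these rules name are not reported here. The comparison, its lists and its tests were chosen with earlier results of these data known.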

Additional observations from a re-analysis of the deposited data

How the results depend on the processing

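With all libraries the counts of 257 rises and 84 falls moved with most choices. The rises were 146 with no filter, 903 with a stricter one, 114 with span-adjusted offsets, 2 with E8 and E8.5 fitted alone (4 with span adjustment), 1 without the E14 stage, 2361 with DESeq2 and 2 with the replicate block. The falls were 250 with no scale factor, 44 and 661 with no filter and a stricter one, 6 with E8 and E8.5 alone (14 with span adjustment), 2 without the E14 stage, 222 with small structural RNAs left out, 2075 with DESeq2, 1 with the replicate block and 43 at a change of at least 0.5. Leaving out 1 library gave 0 to 4245 rises and 0 to 4652 falls, the highest without E8.5 replicate 3. Without that library, 2158 to 4656 rises and 2388 to 5105 falls were called with a further library left out, 2792 and 1591 at a change of at least 0.5, and 3040 falls with span adjustment (2698 with E8 and E8.5 alone). DESeq2 then gave 4564 and 4928 calls. The cause of these shifts was not tested.

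The replicate numbers did not pair the libraries: deviations of same-numbered E8.5 and E8 libraries correlated at -0.003, -0.34 and 0.27, and no number marks a shared litter in the labels. With the replicate block 3027 rises and 3353 falls were called without E8.5 replicate 3. Among 318 results on named genes, which include some that were not called, 39 calls were lost.

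The excess of the longest over the shortest span class, 0.64 with all libraries and 0.82 without replicate 3, became -0.034 and -0.024 with span-adjusted offsets, which remove it by construction. The sign of 2 endothelial genes turned without replicate 3: Erg, at 0.29, was at -0.145 with span adjustment (-0.191 with E8 and E8.5 alone), and Flt1, at 0.37, was at -0.019 with span adjustment in the fit of E8 and E8.5 alone. The 318 named results without E8.5 replicate 3 include some that were not called, so the counts here are larger shares of the calls than of the 318. Span adjustment ended 67 calls, and leaving out E8 replicate 2 or 3 ended 68 and 67. The largest loss in any setting came without E8.5 replicate 2, which leaves a single E8.5 library. Other scale factors ended 2 to 17. No other named result changed sign between settings where at least one of the values compared was called. With E8 and E8.5 fitted alone, without E8.5 replicate 3, 13 named results lost their call and 11 gained one in the same test. Fgf10 (0.51, adjusted p = 0.0321), Fgf8 (-0.40, 0.0195) and Afp (3.42, 0.0268) passed there. At 101202593 or more counts per library, depth limits only low genes such as the Hox and microRNA genes.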

Other observations

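Prl8a2, A2m, Erv3, Htra1 and Esr1 are described because they were among the 10 coding genes furthest below in E8.5 replicate 3, so that their low level in that library was fixed by the choice. Prl8a2, a prolactin-family gene of decidual cells in mice, had 22.4, 19.1 and 1.09 CPM in E8.5 replicates 1, 2 and 3, against 17.8, 16.6 and 17.3 CPM in the E8 replicates. A2m had 30.6, 46.0 and 2.37 CPM at E8.5 and 32.8, 33.4 and 33.5 CPM at E8. Erv3 had 47.0, 33.7 and 1.97 CPM at E8.5 and 23.6, 22.8 and 22.3 CPM at E8, and the serine protease Htra1 27.1, 19.4 and 1.58 CPM at E8.5 and 12.2, 12.4 and 12.3 CPM at E8. None of these 4 passed without replicate 3 (adjusted p = 0.321 to 0.901), while Erv3 (0.80, adjusted p = 0.00825) and Htra1 (0.91, 0.00637) did with E8 and E8.5 fitted alone; replicates 1 and 2 lay on the level of E8 or above it. Esr1, the oestrogen receptor, had 14.2, 17.7 and 4.15 CPM at E8.5 and 7.08, 6.09 and 5.98 CPM at E8 and rose without replicate 3 (1.29 ± 0.30, adjusted p = 0.0111), and the progesterone receptor Pgr had 1.96, 3.98 and 0.579 CPM at E8.5 and 2.11, 1.99 and 1.71 CPM at E8. Esr1 did not pass after span adjustment (adjusted p = 0.0575). Esr1 did not pass when E8.5 replicate 2 was left out as well (adjusted p = 0.0853).

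Lum, the matrix proteoglycan lumican, was highest in E8.5 replicate 3, with 1.55, 1.61 and 12.1 CPM at E8.5 and 0.688, 0.884 and 0.726 CPM at E8 (1.01 ± 0.30, adjusted p = 0.0291 without replicate 3; 0.0639 with all libraries). Lum did not pass when E8 replicate 1, E8 replicate 2, E8 replicate 3, E8.5 replicate 1 or E8.5 replicate 2 was left out as well (adjusted p = 0.0519 to 0.140).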
